A study of Mus musculus with 12 samples.

Results

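The genes described here build, move and anchor the actin network of the megakaryocyte: nonmuscle myosin and its kinase, GTPases with their kinases and formin, the Arp2/3 complex and its activators, actin binding proteins, adhesion linkers and the spectrin membrane skeleton. They are a named list of 53 genes, grouped by function. A member was read only from a probe set with exactly 1 gene symbol, equal to its name or an older synonym, and 45 of the 53 had such a probe set, out of 30142 genes named on the array in all. Myh9, Myl6, Arpc1b and Pdlim7 lie on probe sets that carry several symbols, and Rock2, Arpc3, Actr2 and Epb41 are not analysed here. Dnm3 was too dim to test, which left 44 members among 24265 genes tested.

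Megakaryocytes, the marrow cells that make platelets, were grown in vitro from hematopoietic stem cells of male C57BL/6 mice. Progenitors received thrombopoietin at 100 ng per ml for 3 days, spent a night in medium with 10% charcoal-stripped serum, and were enriched on an albumin gradient. Cells of a single culture went in part to dexamethasone at 100 nM, a synthetic glucocorticoid drug, and in part to vehicle, and RNA was taken after 6 h. With 6 cultures there were 6 arrays per treatment, and all groups shared the thrombopoietin, the serum and the purification. The p-values measure the spread of the paired changes between cultures. The labels do not tell whether each culture had its own mouse, so that spread may be partly technical. Cultures 1 to 6 here are the replicate numbers, for the cultures that the labels number 1, 4, 5, 6, 7 and 8.

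Actin filaments grow from monomers that profilin delivers, branch where the Arp2/3 complex binds, and shorten where cofilin or a gelsolin family protein cuts them. Nonmuscle myosin II pulls on these filaments once its regulatory light chain is phosphorylated, for example by myosin light chain kinase. Underneath the plasma membrane, spectrin tetramers cross-link short actin filaments into a flexible sheet. In megakaryocytes these parts shape the demarcation membranes and the proplatelets that are pinched into platelets, and inherited defects of myosin IIA, filamin A, alpha-actinin 1, the WAS protein, the formin DIAPH1, or tropomyosin 4 are known human causes of low or abnormal platelets.

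All values are the deposited log2 intensities, and a change is the dexamethasone value minus the vehicle value of the same culture. Array medians lay between 5.57 and 5.67, and arrays of the same treatment correlated at r = 0.990 to 0.994. The 5222 negative control probe sets had medians of 6.15 to 6.39 and a 95th percentile of 9.98 to 10.39 on the 12 arrays, and this 95th percentile is called the control ceiling below. Of the 45 members, 33 lay above the control ceiling on all 12 arrays, while Evl, Ank1 and Dnm3 lay below the control median on all 12. The megakaryocyte label was borne out: all 10 measured marker genes of the type, among them Itga2b and Pf4, lay above the control ceiling on every array, with Gp9 higher and Tubb1 lower under dexamethasone.

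Genes of other cell types were mostly dim. None of the 9 neutrophil markers lay above the control ceiling on all arrays, but 4 of them (S100a8, S100a9, Camp and Ltf) fell, and the log2 of the summed level of all 9 ranged from 11.76 to 14.54 in vehicle and from 10.41 to 13.85 under dexamethasone. S100a9 was lowest in cultures 2 and 3, at 10.82 and 11.87 in vehicle against 12.88 to 13.55 in the other 4. Of 7 erythroid markers 5 lay below the control median on all arrays and Epor above it on all, and the log2 summed level was 9.27 to 9.70 in vehicle and 9.44 to 9.65 under dexamethasone. Of 9 monocyte markers 5 lay below the control median on all arrays, with Lyz2 alone above the ceiling throughout. Ccr2, below that median on 6 of 12 arrays, changed by -0.42 (adjusted p = 0.000963). The sums ran from 17.29 to 17.57 in vehicle and from 17.42 to 17.61 under dexamethasone, and mostly reflect Lyz2. Of 12 smooth muscle and stromal markers 9 lay below the control median, Acta2, Myh11 and Des among them, and Smtn lay above it and fell. Pecam1, which is on that list but not specific to such cells, alone lay above the ceiling throughout. It measured 12.13 to 12.35 in vehicle and 11.98 to 12.14 under dexamethasone. The sums were 12.38 to 12.58 in vehicle and 12.19 to 12.36 under dexamethasone, and mostly reflect Pecam1. The 8 mast cell and basophil markers had sums of 9.59 to 9.81 and 9.84 to 10.09, with Cpa3 and Gata2 higher and Mcpt8 lower.

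After 6 h of dexamethasone, 10 of the 44 members were higher and 4 lower. The 10 that rose were Mylk, Sptb, Was, Pdlim1, Myl9, Sptan1, Wasf2, Sptbn1, Zyx and Rac1, by 1.13-fold to 1.67-fold, and the 4 that fell were Scin, Tpm1, Diaph1 and Tpm4, by 1.12-fold to 1.95-fold. A gene was counted at a limma adjusted p under 0.05 over all genes tested, which 12.0% of them reached, 7.39% upward and 4.56% downward. The members' share was 31.8%, and brighter genes passed more often: of the 3859 genes above the control ceiling on at least 6 arrays, 27.9% passed (17.0% upward, 10.9% downward), against 31.4% of the 35 members in that class. The members' share was near that of genes of like brightness. The median change of the 44 members was 0.01, with a median size of 0.14, beside -0.01 and 0.08 for all genes tested and 0.05 and 0.13 for the bright genes. In a bulk culture, fewer cells of a type and less RNA per cell cannot be told apart.

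The balance of the directions moved with the scaling. As deposited, 71.43% of the members' calls were upward; after quantile normalization 9 were higher and 13 lower (40.91%), and after centring each array on its median 10 were higher and 3 lower (76.92%). The calls over all genes moved likewise, with 61.86% upward at first, 44.91% under quantile normalization and 70.29% once centred. Groups did not overlap for 13 members, 8 of them higher and 5 lower, where 6.73% of all genes tested and 17.1% of the bright genes had no overlap. All 6 cultures moved the same way for 23 members, 12 upward and 11 downward, beside 19.5% of all genes tested and 42.9% of the bright genes.

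**Figure D1:**
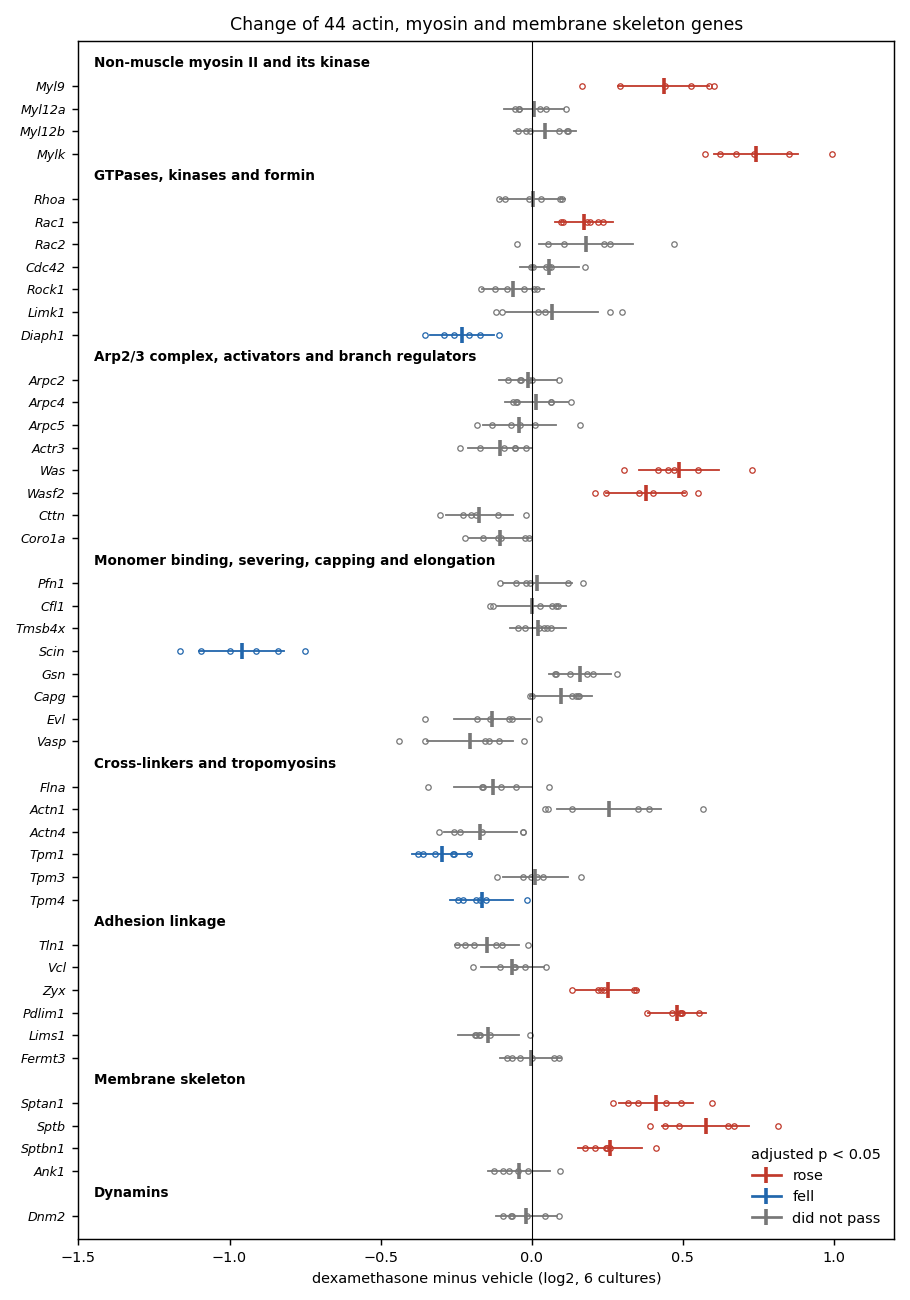
Change of the 44 tested members on dexamethasone, in log2 units on the x axis, grouped by role; open points are the 6 cultures, the vertical tick is the mean change and the bar its 95% interval. Red marks the 10 genes that rose, up to 0.74 for Mylk, blue the 4 that fell, down to -0.96 for Scin, and grey the 30 that did not pass.

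The myosin group held the largest rise. Mylk encodes myosin light chain kinase, which phosphorylates the regulatory light chain and so switches on myosin II. It measured 10.58 at the lowest, 10.74 at the median and 10.78 at the highest in vehicle, and 11.20, 11.45 and 11.78 under dexamethasone. Every treated array lay above every vehicle array, with culture 2 the highest and culture 6 the lowest in both groups. The mean went from 10.71 ± 0.08 to 11.45 ± 0.22 (SD, n = 6 cultures), a change of 0.74 (SE 0.06, 95% interval 0.60 to 0.88, adjusted p = 9.9e-05), or 1.67-fold.

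Myl9 encodes a regulatory light chain that this kinase phosphorylates. It measured 12.46, 12.76 and 12.87 (lowest, median, highest) in vehicle and 12.65, 13.15 and 13.47 under dexamethasone. All 6 cultures rose, yet the groups overlapped, since culture 5 reached only 12.65 after treatment, below 4 of the vehicle arrays. The mean change was 0.44 (SE 0.07, 95% interval 0.29 to 0.59, adjusted p = 0.00325), or 1.35-fold, and without cultures 2 and 3 it was 0.39 (adjusted p = 0.052). The other measured light chains, Myl12a and Myl12b, had changes of 0.01 (95% interval -0.09 to 0.11) and 0.04 (-0.06 to 0.14), and neither passed the test. Myl12a lay under the control ceiling on all 12 arrays, and Myl12b above it on all 12. Mylk, Myl9 and Tpm1 are also strongly expressed in smooth muscle. Of the 12 smooth muscle and stromal markers 9 lay below the control median on all 12 arrays, Acta2, Myh11 and Des among them, while Smtn lay above it on all 12 and changed by -0.55 (adjusted p = 0.000192). The part of these cells in the changes of Mylk, Myl9 and Tpm1 was not tested.

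The Myl9 promoter is shown because it holds a CArG box, the motif of serum response factor (2 C, 6 bases that are A or T, 2 G), set in capitals. The gene's annotation begins at base 156775408, upstream of the annotated start used for this window. The window runs from 250 bases before that annotated start to 20 after it, and the box begins 161 bases before that start. It is RefSeq sequence of GRCm38.p6, chr2:156775214-156775483, plus strand, 5′ to 3′.
Myl9: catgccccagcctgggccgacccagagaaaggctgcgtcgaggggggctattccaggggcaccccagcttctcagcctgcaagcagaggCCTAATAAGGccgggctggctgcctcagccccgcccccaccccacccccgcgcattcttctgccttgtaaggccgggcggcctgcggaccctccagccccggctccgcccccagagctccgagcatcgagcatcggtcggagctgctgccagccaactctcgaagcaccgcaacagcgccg
Of the 32851 promoters in that set, 1.63% held the motif within 250 bases before to 50 after the start, on either strand. Counted by gene, 1.81% of 27025 genes held it in at least 1 promoter. Among the 38 tested members with a promoter there, 3 did: Myl9, Vcl, which encodes vinculin, and Arpc4, which encodes an Arp2/3 subunit, and neither Vcl nor Arpc4 passed the test. A match describes letters only.

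Of the 8 GTPases, kinases and formin, 7 were measured, of which Rac1 rose and Diaph1 fell. Rac1 encodes a small GTPase that drives sheet-like protrusions. It measured 15.32, 15.39 and 15.50 (lowest, median, highest) in vehicle and 15.49, 15.56 and 15.60 under dexamethasone, so that the highest vehicle array just passed the lowest treated one. All 6 cultures rose, by 0.17 on average (SE 0.04, 95% interval 0.08 to 0.27, adjusted p = 0.0326), or 1.13-fold. The call rested on all 6 cultures: leaving out any 1 gave an adjusted p of 0.052 to 0.098, and quantile normalization gave a change of 0.10 (adjusted p = 0.145).

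Diaph1 encodes a formin that elongates unbranched filaments. Vehicle arrays gave 14.74, 14.81 and 14.87 (lowest, median, highest), and treated arrays gave 14.45, 14.58 and 14.72, below all of them. The mean fell by 0.23 (SE 0.05, 95% interval -0.34 to -0.12, adjusted p = 0.0139), 1.17-fold lower, and every culture fell. With all probe sets of the array tested together, the adjusted p was 0.052.

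The other GTPases and the kinases of the group did not pass. Rhoa, a GTPase that activates Diaph1, changed by 0.00 (95% interval -0.10 to 0.11), with vehicle arrays at 14.95 to 15.13 and treated arrays at 14.94 to 15.07. Cdc42, which controls filopodia and activates the WAS protein, changed by 0.06 (95% interval -0.04 to 0.16). Rac2, the Rac of blood cells, gave 0.18 (95% interval 0.03 to 0.34, adjusted p = 0.131), with 5 of 6 cultures higher and culture 4 the highest after treatment at 12.49. Rock1, a kinase that activates myosin, and Limk1, a kinase that inactivates cofilin, gave -0.06 and 0.07. Limk1 lay under the control ceiling on all 12 arrays.

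**Figure D2:**
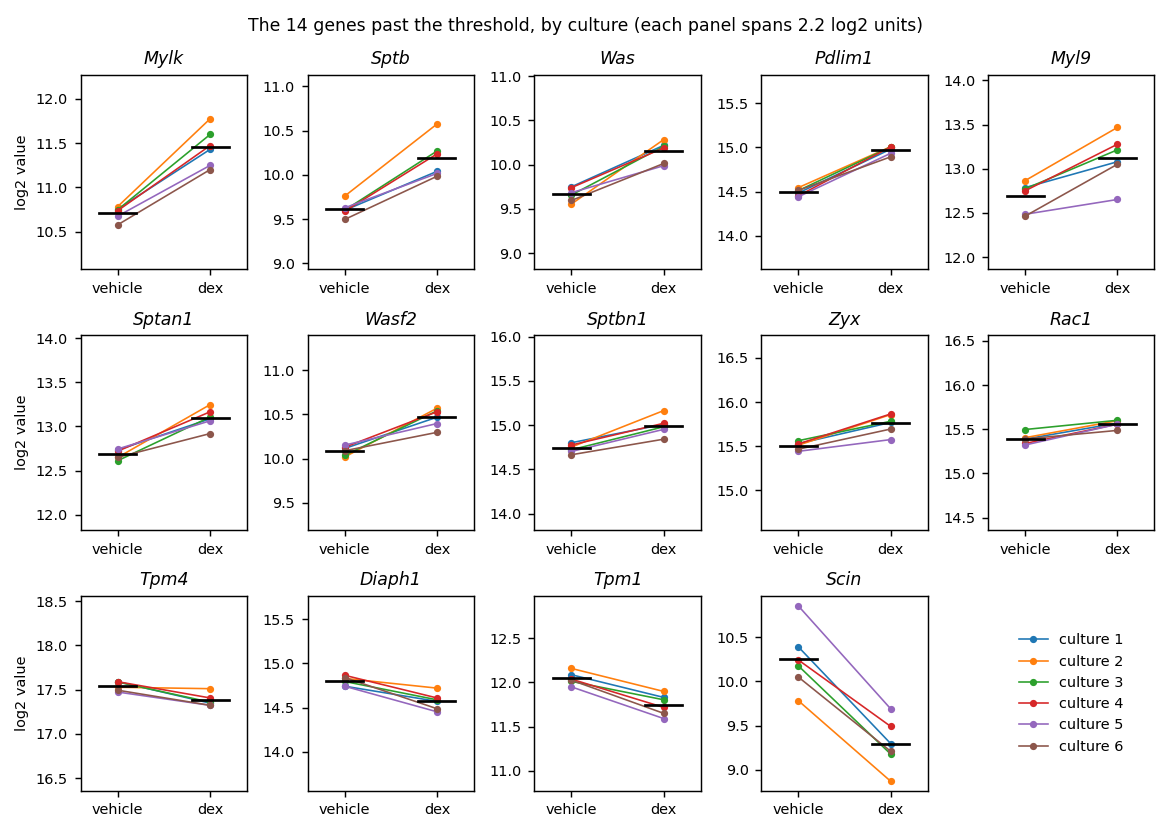
The 14 members past the threshold, with the log2 value of each culture on the y axis in vehicle and dexamethasone (dex); coloured lines join the 2 arrays of a culture, black bars are group means, and every panel spans the same range. Scin falls from 10.25 to 9.29 and Mylk rises from 10.71 to 11.45, while Rac1 and Tpm4 shift by 0.17 and -0.17.

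In the branching group 2 of 8 tested members rose, the Arp2/3 activators Was and Wasf2, and none of the 4 measured subunits passed. Of 17 further activators and partners tested beyond the members 2 rose, Coro1b and Brk1 (the latter named after its values were seen), and Wasl, a close relative of Was, gave -0.00 (95% interval -0.12 to 0.12). Was encodes the Wiskott-Aldrich syndrome protein, the blood cell activator of the complex. It measured 9.55, 9.67 and 9.75 (lowest, median, highest) in vehicle and 9.99, 10.20 and 10.28 under dexamethasone, without overlap. The mean went from 9.66 ± 0.08 to 10.15 ± 0.12 (SD, n = 6), a change of 0.49 (SE 0.06, 95% interval 0.35 to 0.62, adjusted p = 0.000867), or 1.40-fold. The probe set lay above the control ceiling on 1 of 12 arrays, a treated one.

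Wasf2 encodes WAVE2, which activates the complex downstream of Rac. Vehicle arrays read 10.02, 10.10 and 10.15, and treated arrays 10.30, 10.50 and 10.57 (lowest, median, highest). All treated arrays were above all vehicle arrays, and among them culture 2 was highest and culture 6 lowest. The change was 0.38 (SE 0.06, 95% interval 0.25 to 0.51, adjusted p = 0.00327), or 1.30-fold, and the probe set lay above the control ceiling on 6 of 12 arrays.

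Arpc2, Arpc4 and Arpc5, subunits of the complex, changed by -0.01, 0.02 and -0.04, with intervals inside -0.16 to 0.12. Actr3, the Arp3 subunit, gave 15.62 to 15.67 in vehicle and 15.39 to 15.62 in treated arrays, a change of -0.10 (adjusted p = 0.187) with all 6 cultures lower and no overlap. Cttn encodes cortactin, which stabilizes branches. It gave 10.73, 10.83 and 10.87 in vehicle and 10.57, 10.66 and 10.71 under dexamethasone (lowest, median, highest), again with no overlap. Its change of -0.17 (95% interval -0.29 to -0.06) had an adjusted p of 0.0524, and it passed without the culture block (adjusted p = 0.0195). Coro1a, a coronin that removes branches, gave -0.10 (adjusted p = 0.186).

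Among the 8 proteins that bind monomers or cut, cap or extend filaments, 1 changed. Scin encodes scinderin, also called adseverin, a calcium-dependent severing and capping protein of the gelsolin family. It measured 9.78, 10.21 and 10.85 (lowest, median, highest) in vehicle and 8.87, 9.25 and 9.69 under dexamethasone. The groups did not overlap; culture 5 was highest and culture 2 lowest in both. The mean went from 10.25 ± 0.36 to 9.29 ± 0.28 (SD, n = 6), a change of -0.96 (SE 0.06, 95% interval -1.10 to -0.82, adjusted p = 2.3e-05), 1.95-fold lower. Individual cultures fell by 0.75 to 1.16. Its SD in vehicle was the widest of all 44 members, whose median SD was 0.06. Culture 2 also had the lowest S100a9, at 10.82 in vehicle and 8.96 under dexamethasone, and the part of the neutrophil markers in the fall of Scin was not tested. Scin lay above the control ceiling on 4 of 12 arrays.

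Gsn, encoding gelsolin, the founding severing protein of that family, gave 11.49, 11.53 and 11.60 in vehicle and 11.58, 11.69 and 11.81 under dexamethasone (lowest, median, highest). It was higher in all 6 cultures, by 0.16 (95% interval 0.06 to 0.26, adjusted p = 0.0565), and did not pass. Capg, a capping protein of the same family, gave 0.10 (adjusted p = 0.213). Vasp and Evl, which extend filaments and shield them from capping, gave -0.20 (adjusted p = 0.0703) and -0.13 (adjusted p = 0.170), and Evl was below the control median throughout. Capg and Vasp lay under the control ceiling on all 12 arrays. The monomer proteins and cofilin did not pass: Pfn1 (profilin 1) gave 0.02, Cfl1 (cofilin 1) -0.00 and Tmsb4x (thymosin beta 4) 0.02, with intervals inside -0.11 to 0.13.

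Cross-linkers and tropomyosins had a median change of -0.15, and 2 of the 6 fell. Tpm1 encodes tropomyosin 1, which lies along filaments and steers myosin and cofilin binding. It read 11.95, 12.03 and 12.16 (lowest, median, highest) in vehicle and 11.59, 11.76 and 11.90 under dexamethasone, every treated array below every vehicle array. The mean fell by 0.30 (SE 0.04, 95% interval -0.40 to -0.20, adjusted p = 0.00266), 1.23-fold lower.

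Tpm4, the tropomyosin known for its role in platelet production, read 17.47, 17.56 and 17.59 in vehicle and 17.32, 17.35 and 17.51 under dexamethasone (lowest, median, highest). The groups overlapped through culture 2, which fell by only 0.02. The mean change was -0.17 (SE 0.05, 95% interval -0.27 to -0.06, adjusted p = 0.0499), on the edge of the threshold. Centring the arrays gave -0.14 (adjusted p = 0.126), and leaving out culture 1, 3, 4, 5 or 6 gave adjusted p-values of 0.095 to 0.138. Tpm3 gave 0.01 (95% interval -0.10 to 0.12).

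Actn1 encodes alpha-actinin 1, which bundles filaments. It read 12.77, 12.85 and 12.96 in vehicle and 12.83, 13.10 and 13.53 under dexamethasone (lowest, median, highest). All 6 cultures were higher, but unevenly: culture 2 by 0.57 and the least by 0.04, and the treated SD of 0.29 was the widest of the members. The change of 0.26 (95% interval 0.08 to 0.43) had an adjusted p of 0.0625. Actn4, its close relative, gave -0.17 (adjusted p = 0.0748) with all 6 cultures lower, and Flna, the filamin that anchors platelet glycoprotein Ib to actin, gave -0.13 (adjusted p = 0.186). The difference between Actn1 and Actn4 was not tested.

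Of 6 measured adhesion linkers, Pdlim1 and Zyx rose. Pdlim1 encodes a PDZ and LIM protein that binds alpha-actinin on stress fibres. It measured 14.44, 14.50 and 14.54 (lowest, median, highest) in vehicle and 14.89, 14.99 and 15.01 under dexamethasone, leaving a clear gap between the groups. The mean went from 14.49 ± 0.04 to 14.97 ± 0.05 (SD, n = 6), a change of 0.48 (SE 0.04, 95% interval 0.38 to 0.58, adjusted p = 0.000141), or 1.39-fold. No culture rose by less than 0.38 or by more than 0.55.

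Zyx encodes zyxin, a sensor and repair protein of tensed stress fibres. It read 15.44, 15.52 and 15.56 in vehicle and 15.58, 15.78 and 15.87 under dexamethasone (lowest, median, highest), without overlap, with culture 5 lowest in both. The change was 0.25 (SE 0.05, 95% interval 0.15 to 0.36, adjusted p = 0.00863), or 1.19-fold, and without cultures 2 and 3 it was 0.24 (adjusted p = 0.074). The proteins that activate and hold integrins did not pass. Tln1 (talin 1) and Lims1 (PINCH1, a partner of integrin-linked kinase) gave -0.15 (adjusted p = 0.0798) and -0.14 (adjusted p = 0.0714), each lower in all 6 cultures. Vcl (vinculin) gave -0.06, and Fermt3 (kindlin-3, needed for platelet integrin activation) gave -0.00 with a 95% interval of -0.10 to 0.10.

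Of the 4 membrane skeleton members tested, the 3 spectrins rose and Ank1 did not pass. Of 10 further genes of that role tested, listed beyond the members, none passed in either direction. Sptan1 encodes alpha II spectrin, the alpha chain of nonerythroid cells. It measured 12.61, 12.69 and 12.75 (lowest, median, highest) in vehicle and 12.92, 13.10 and 13.25 under dexamethasone, with no overlap. The change was 0.41 (SE 0.05, 95% interval 0.29 to 0.54, adjusted p = 0.0014), or 1.33-fold.

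Sptbn1 encodes beta II spectrin, its usual partner. It read 14.67, 14.74 and 14.80 in vehicle and 14.84, 15.00 and 15.16 under dexamethasone (lowest, median, highest), again separate. The change was 0.26 (SE 0.05, 95% interval 0.15 to 0.36, adjusted p = 0.00754), or 1.20-fold. Culture 2 rose by 0.41 and the others by 0.18 to 0.26, and without cultures 2 and 3 the change was 0.22 (adjusted p = 0.063).

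Sptb encodes beta I spectrin, best known from the red cell membrane. It measured 9.49, 9.60 and 9.76 (lowest, median, highest) in vehicle and 9.98, 10.14 and 10.57 under dexamethasone. The groups did not overlap, and culture 2 was highest in both. The mean went from 9.61 ± 0.09 to 10.19 ± 0.22 (SD, n = 6), a change of 0.58 (SE 0.06, 95% interval 0.43 to 0.72, adjusted p = 0.0005), or 1.49-fold. Of the 7 erythroid markers measured, Slc4a1, Klf1, Rhag, Ermap and Epb42 lay below the control median on all 12 arrays and Alas2 on 10. Epor lay above it on all 12 and was higher in 5 of 6 cultures, by 0.26 (95% interval 0.06 to 0.46, adjusted p = 0.0968). None of the 5 erythroid markers tested passed, and the part of red cell precursors in the rise of Sptb was not tested. Ank1, the ankyrin that ties beta I spectrin to the red cell membrane, was also below it throughout and changed by -0.04. The Sptb probe set lay above the control ceiling on 3 of 12 arrays.

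The Sptb promoter is shown because it holds the only match among these 38 members to a glucocorticoid response element, searched as GNACANNNTGTNC on both strands. The match is in capitals and spans 9 bases before to 4 bases after the annotated start. The sequence is RefSeq, GRCm38.p6, chr12:76710528-76710797, minus strand, 5′ to 3′.
Sptb: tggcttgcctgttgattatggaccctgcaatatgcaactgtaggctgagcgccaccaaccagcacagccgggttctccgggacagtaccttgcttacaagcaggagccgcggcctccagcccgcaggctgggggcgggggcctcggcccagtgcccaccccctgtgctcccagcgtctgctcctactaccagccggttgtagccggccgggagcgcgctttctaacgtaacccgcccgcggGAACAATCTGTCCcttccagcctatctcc
Of the 32851 promoters, 0.475% held this motif, and of the 27025 genes, 0.537% held it in at least 1 promoter. The other 11 genes past the threshold with a promoter in the set had no match in this window, which covers little of a gene's regulatory sequence.

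Dynamins pinch membranes and bind actin regulators. Dnm2, the widely expressed form, changed by -0.02 (95% interval -0.12 to 0.08). Dnm3 was at 4.82 ± 0.06 in vehicle and 4.74 ± 0.06 under dexamethasone (SD, n = 6), below the control median on all arrays.

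**Figure D3:**
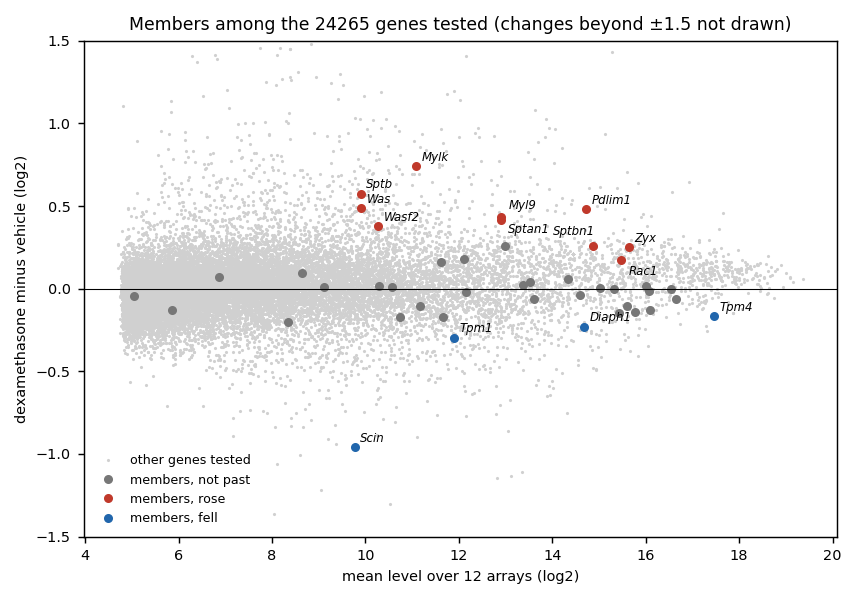
Mean log2 level over the 12 arrays (x axis) against the change on dexamethasone (y axis, log2) for the 24265 genes tested; light points are other genes, and coloured points the members. Scin, at group means of 10.25 and 9.29, is the leftmost of the members that rose or fell, and Tpm4, at 17.54 and 17.38, the rightmost.

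The 30 members that did not pass had changes of -0.20 to 0.26, with 95% intervals reaching from -0.35 to 0.43, so shifts of the size seen for Tpm1 or Zyx are not excluded for some of them. Of these, 12 had an unadjusted limma p under 0.05. The share of all genes under that limit was not worked out, so the count does not set the members apart. Actr3, Cttn, Coro1a, Vasp, Actn4, Tln1 and Lims1 were lower in all 6 cultures, and Gsn and Actn1 higher in all 6. After quantile normalization Actr3, Cttn, Coro1a, Vasp, Flna, Actn4, Tln1, Vcl and Lims1 passed the threshold as lower.

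The median changes differed between cultures. Culture 2 had both the largest median rise and the smallest median fall, so these values do not rank the cultures by strength of response. The median change of the 10 genes that rose was 0.57 in culture 2, 0.49 in culture 3, 0.45 in culture 4, 0.35 in culture 1, 0.32 in culture 6 and 0.28 in culture 5. Culture 2 gave the largest change for 8 of these 10 genes, and cultures 5 and 6 the smallest for 5 each. The 4 genes that fell had median changes of -0.19 in culture 2, -0.22 in culture 3, -0.25 in culture 1, -0.29 in culture 4, -0.32 in culture 5 and -0.36 in culture 6. Of all 44 members, 31 were higher in culture 2 and 17 to 24 in the others. The bright genes shifted alike, with medians of 0.11 in culture 2, 0.08 in culture 4, 0.06 in culture 3 and -0.01 to 0.01 in the rest. The neutrophil marker S100a9 was lowest in culture 2 and next lowest in culture 3 in both groups, and its part in these differences was not tested. Without cultures 2 and 3, Mylk, Was, Wasf2, Pdlim1, Sptan1 and Sptb still passed as higher, while Myl9, Zyx, Sptbn1 and Rac1 did not.

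**Figure D4:**
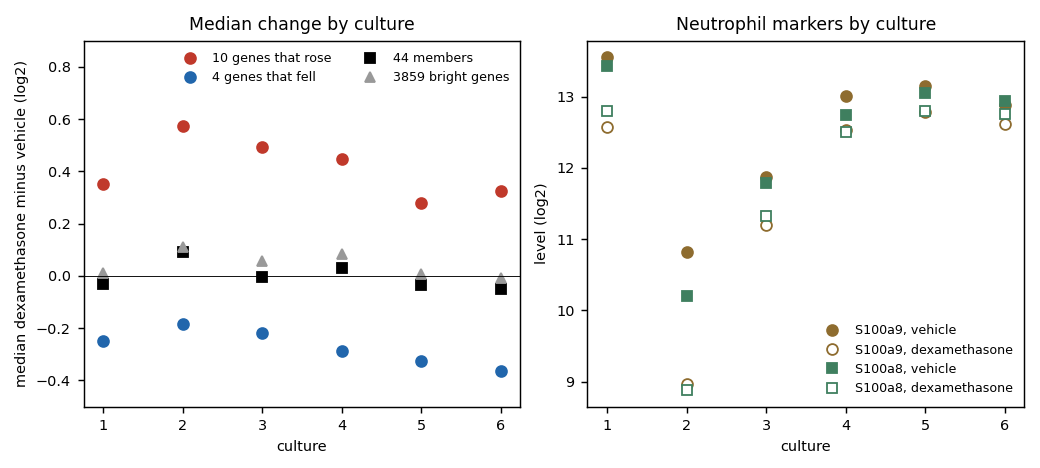
Left, median log2 change in each of the 6 cultures for the 10 genes that rose (red), the 4 that fell (blue), all 44 members (black) and the 3859 bright genes (grey); right, log2 levels of S100a9 and S100a8 in vehicle (filled) and dexamethasone (open). Culture 2 has the largest median rise, 0.57, and the lowest S100a9, 10.82 in vehicle.

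Beyond the 53 members, 107 further actin genes were listed by the same roles. Of the 96 tested, 12 rose and 9 fell, or 12.5% and 9.38%, with a median change of -0.00. These shares lay between those of all genes tested (7.39% and 4.56%) and of the bright genes (17.0% and 10.9%). Of the 96, 39 were in the bright class. Named here are the 5 with the largest changes in each direction. Rhob, a short-lived GTPase induced by stress and growth signals, measured 8.23, 8.52 and 8.94 (lowest, median, highest) in vehicle and 10.33, 10.50 and 10.65 under dexamethasone. No gene among the members moved as far: its change was 1.92 (SE 0.12, 95% interval 1.65 to 2.18, adjusted p = 1.6e-05). None of the 6 vehicle arrays lay above the control ceiling for Rhob, and 5 of the 6 treated arrays did. Rhoc, another close relative of Rhoa, rose by 0.43 (adjusted p = 0.0109). Limk2, the sister kinase of Limk1, rose by 0.45 (adjusted p = 0.000452), from 7.16 to 7.34 in vehicle to 7.56 to 7.78 in treated arrays. Ezr, encoding ezrin, which ties actin to membrane proteins, rose by 0.58 (adjusted p = 0.000167), and Coro1b, a coronin, by 0.35 (adjusted p = 0.00455).

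Of the genes that fell, Myo1e encodes a single-headed membrane myosin. It measured 10.19, 10.32 and 10.50 (lowest, median, highest) in vehicle and 9.33, 9.62 and 9.72 under dexamethasone, with no overlap. Its change was -0.75 (SE 0.06, adjusted p = 8.6e-05). Cald1, encoding caldesmon, which restrains myosin on tropomyosin-coated filaments, changed by -0.55 (adjusted p = 7.2e-05). Daam1 and Diaph3, formins like Diaph1, changed by -0.31 (adjusted p = 0.00256) and -0.39 (adjusted p = 0.00401). Lcp1, encoding the leukocyte filament bundler L-plastin, changed by -0.41 (adjusted p = 0.00456). In vehicle Lcp1 was lowest in culture 2 (7.54) and next lowest in culture 3 (7.89), as was S100a9. The part of the neutrophil markers in the fall of Lcp1 was not tested. Ezr, Limk2, Cald1, Lcp1 and Diaph3 lay above the control ceiling on 0 of 12 arrays, and Myo1e on 4. All 10 of these genes moved the same way in 6 of 6 cultures, which their choice by the same paired changes favours. Actb, encoding beta-actin, gave 17.73 to 17.85 in vehicle and 17.63 to 17.77 in treated arrays, a change of -0.08 (95% interval -0.18 to 0.02, adjusted p = 0.306).

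**Figure D5:**
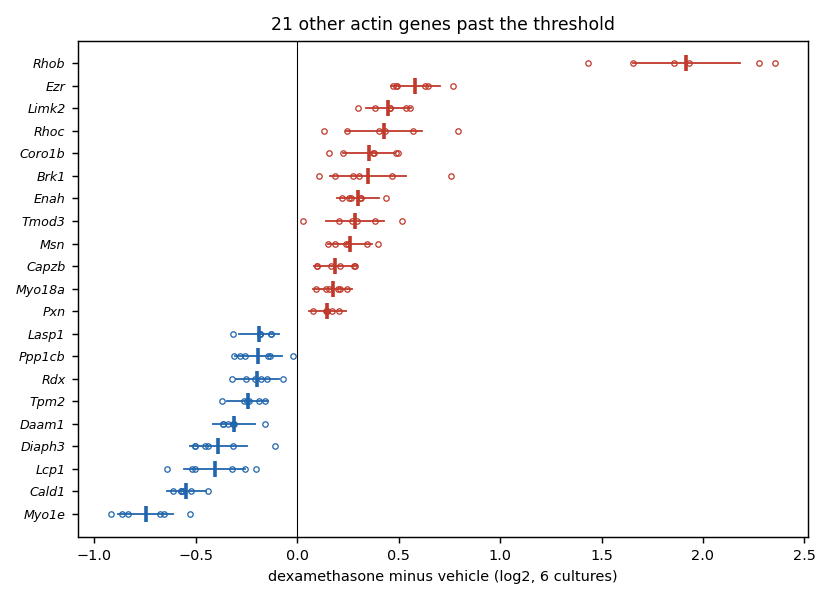
The 21 other actin genes past the threshold, with the change on dexamethasone in log2 units on the x axis; open points are the 6 cultures, ticks the mean change and bars its 95% interval. Rhob stands farthest to the right at 1.92 and Myo1e farthest to the left at -0.75.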

How the data were processed

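RNA of 12 samples was measured on 1-colour arrays after amplification from 50 ng and biotin labelling, per the labels' protocols. The authors deposited 1 table of log2 values for 72688 probe sets; the background correction, normalization and summarization were not given in the sources used here, and the scale was taken from the values themselves. They were used as deposited, since array medians differed by at most 0.0992. Symbols came from the platform annotation, updated through RefSeq of GRCm38.p6 for 827 symbols. Where a gene had several probe sets, that with the greatest mean of the 12 arrays stood for it, and it was tested if 6 or more arrays put it over their own 25th percentile. Changes were fitted with limma 3.58.1 (R 4.3.3), two-sided, with culture as a block, and Benjamini-Hochberg adjustment over the 24265 genes. All adjusted p-values are limma's.

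The block follows the treatment protocol, which says that each culture was divided. Deviations from the group mean correlated at 0.0493 to 0.247 for arrays sharing a number (mean 0.158, over 0.1 in 4 of 6 cultures). Those of different numbers averaged -0.0316, but centring each group on its own mean largely fixes that value once the same-number mean is known. In cultures 2 and 3 the vehicle array correlated more with a treated array of another number (0.244 and 0.0648) than with its own. In cultures 1, 4, 5 and 6 the treated array of its own number was higher. All members may be named; of other actin genes, the 5 largest changes past the threshold per direction. The number of arrays limits precision. Other scalings, filters on dim genes, blocks, probe set rules and sets of cultures were tried as alternatives. The fit was tested on simulated data. It recovered 14 of 67 log2 changes of 0.25 (20.9%), 55 of 67 of 0.5 (82.1%) and 64 of 66 of 1 (97.0%). Of its 139 calls, 6 were false. Only 200 genes were changed there, fewer than the 2900 that passed in the data, so these shares need not hold for the members. Members and lists were chosen with earlier results of these data known.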

Additional observations from a re-analysis of the deposited data

Results flagged for a closer look

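Among 132 sets of 6 values, the vehicle values, dexamethasone values and paired changes of the 44 members, 4 had 1 value set apart from the rest by Dixon's test, whereas chance alone gives about 1 in 20, or 7. In Cdc42 the paired change of culture 2 was 0.177, and the other cultures lay between -0.00 and 0.06. For Sptbn1 the change in culture 2 was 0.413, against 0.18 to 0.26 elsewhere. Lims1 was set apart in culture 2 by a change of -0.0044, where the others fell by 0.14 to 0.19, and in culture 6 by the lowest vehicle value, 15.76, where the others were 15.84 to 15.87. In 3 of these 4 sets the value belonged to culture 2, the culture with the lowest S100a9 level, and the part of that difference was not tested.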

How the results depend on the processing

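Across 19 other settings no member or named gene reversed a call. Of the 14 members past the threshold, 8 (Mylk, Was, Wasf2, Scin, Tpm1, Pdlim1, Sptan1 and Sptb) passed wherever they were tested. Tpm4 and Rac1 each lost the call in 9 settings, and Myl9, Zyx, Sptbn1 and Diaph1 in 1 each; 12 other members passed in at least 1 setting. The sign changed for 11 members that passed under neither setting. Of the other actin genes named, Rhoc and Coro1b were lost without cultures 2 and 3 (adjusted p = 0.077 and 0.063), and Daam1 without the block (adjusted p = 0.066); these 10 genes were added to the comparison after seeing the data.

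Genes past the threshold numbered 2900 of 24265 (12.0%). With only genes above the control ceiling they numbered 1824 of 3859, a larger share (47.3%). They numbered 1482 with all probe sets tested, 1270 without cultures 2 and 3, and 1876 to 2334 with 1 culture left out, lowest without culture 3. Members higher numbered 10, against 6 without cultures 2 and 3, and 9 without any 1 culture. Members lower numbered 4, against 13 after quantile normalization, 7 with the filter at the 50th percentile, 9 at the control median, 7 at the control ceiling, 8 with culture as a random effect, 7 with a trended robust fit, 2 with all probe sets, and 3 to 5 with 1 culture left out. Other actin genes higher numbered 12, against 7 with all probe sets, 5 without cultures 2 and 3, and 7 to 10 with 1 culture left out, lowest without culture 4. Those lower numbered 9, against 16 after quantile normalization, 5 without cultures 2 and 3, and 6 to 9 with 1 culture left out. Without the replicate block, 2452 genes passed, and 10 members were higher and 5 lower, Cttn being added; no other member call changed. The causes were not tested, beyond the fewer genes or arrays that some settings hold. Signal over background limits Was, Sptb and Scin, and Rhob, Ezr, Limk2, Myo1e, Cald1, Lcp1 and Diaph3, which the strictest filter leaves untested.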
